A study of Mus musculus with 14 samples.

Results

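Embryoid bodies are balls of embryonic stem cells that form germ layer derivatives in culture, and this comparison asked how gene expression at day 3 of mesodermal differentiation differed between a line lacking Foxk1 and its control. The libraries were chosen by their labels: 2 of day 3 Foxk1 KO and 2 of day 3 control, 4 of the 14 libraries of the series, described across all genes. The control is the mouse embryonic stem cell line iHAFoxk1, with ND added in the titles, letters whose meaning was not taken up. The KO line carries the genotype Foxk1KO. Both were kept on irradiated mouse embryonic fibroblasts, freed of these feeder cells by plating, and differentiated by shaking in mesodermal medium, with no further agent given. A single line of each kind was used, so the loss of Foxk1 and any other difference between the lines cannot be told apart. Separate cultures are not named in the labels for the 2 libraries of a group, so the spread behind the p-values may be technical. That spread comes from the day 3 and day 5 pairs together, because all 8 libraries of these days were fitted jointly. A gene that was not called can still have day 3 groups that lie apart.

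Foxk1 is a forkhead transcription factor with a forkhead-associated domain. It is known as a repressor that works with the Sin3 complex, and has been tied to muscle progenitors, autophagy genes, glycolysis and the nuclear entry of Dishevelled proteins in Wnt signalling. In the embryo, and in embryoid bodies grown in serum, Wnt, Nodal and BMP signals drive epiblast cells into the primitive streak, where they lose epithelial junctions, switch on T, Mixl1 and Eomes, and move on to mesoderm and endoderm.

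The 4 libraries held between 11114976 and 11621032 estimated counts, and levels are given in CPM, meaning counts relative to the size of the library, after scaling by the trimmed mean of M values. In a library at this depth, 3 counts correspond to 0.254 to 0.265 CPM. Differences are log2 fold changes of KO over control, with the standard error (SE) after the ± sign. Each was tested with edgeR's quasi-likelihood test, and a gene was called where the adjusted p was under 0.05. Rises and falls are stated only for called genes. In bulk RNA, fewer cells of a type and less RNA per cell cannot be told apart. CPM are not corrected for transcript length, so levels are compared between groups and not between genes.

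Of 14430 genes tested, 4741 were called (32.9%), 2302 higher in the KO (16%) and 2439 lower (16.9%). These shares are the background for the counts of each gene list below. The median size of the change among called genes was 0.64 on the log2 scale, and the median over all genes tested was -0.01. Past a doubling, 883 genes rose (6.12%), and past a halving, 728 genes fell (5.05%). The largest changes were mostly falls: 215 called genes lay past an 8-fold fall and 122 past an 8-fold rise. The 2 libraries of one group lay wholly above the 2 of the other in each of the 4741 called genes, and in 74.6% of all genes tested. The number called was 2520 to 2572 with any 1 of the 4 libraries left out, 2991 by DESeq2 and 7334 with the day 3 libraries fitted alone, a fit that also called more genes in 37 of the 43 gene lists used below and fewer in none.

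**Figure D1:**
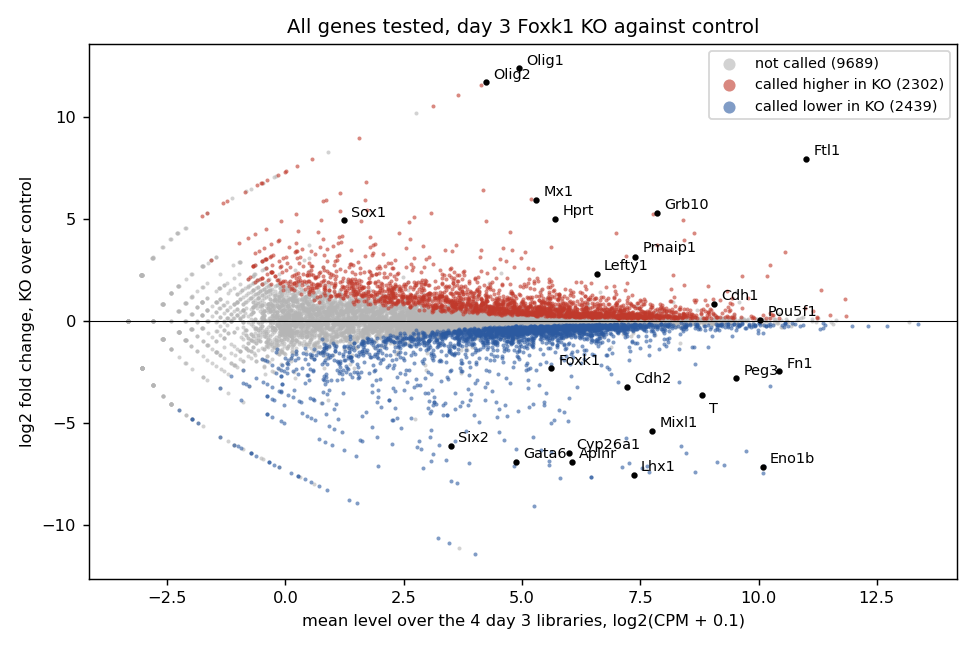
Each point is one of 14430 genes, with its mean level over the 4 day 3 libraries as log2(CPM + 0.1) on the x axis and its log2 fold change of KO over control on the y axis. The 2302 called rises are red and the 2439 called falls are blue; the falls reach further down than the rises reach up over most of the range, with streak and mesoderm genes among the lowest points.

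The targeted gene was measured first. Foxk1 stood at 86.3 and 76.4 CPM in the control and 16.2 and 16.5 CPM in the KO, a log2 fold change of -2.32 ± 0.09 (adjusted p 2.2e-07). Both KO libraries lay far below both controls but not at 0, and where in the gene the KO allele was altered is not given in the labels, so the remaining counts were not interpreted. Its closest relative Foxk2 was at 114 and 121 CPM in the control and 114 and 108 CPM in the KO and was not called (adjusted p 0.35). Among 20 genes listed as Foxk partners and forkhead relatives, 5 rose and 3 fell, against 16% and 16.9% of all genes. The list holds Foxk1 itself, and the falls include it, so that count is partly set by the choice of lines. The FoxO factors, which act downstream of insulin signalling and bind motifs like that of Foxk1, did not move together. Foxo3 was at 82.2 and 86.03 CPM in the control and 133 and 134 CPM in the KO (0.66 ± 0.06) and Foxo1 at 34.95 and 37.9 CPM in the control and 58.2 and 63.8 CPM in the KO (0.74 ± 0.09), both higher in the KO. Foxo4 fell by 0.52 on the log2 scale. The Foxp1 factor rose by 0.85 and the Foxn3 factor by 0.66. Of the co-repressor Sin3 genes, Sin3b rose from 106 and 103 to 136 and 145 CPM, while Sin3a, at 196 and 206 CPM in the control and 182 and 186 CPM in the KO, was not called. Foxo4 lost the call with any 1 of the 4 libraries left out (adjusted p up to 0.089).

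Promoter sequence was read to show what the 250 bases before the start of these genes hold. RefSeq promoters of the GRCm38.p6 assembly were matched for 10869 of the genes tested. The forkhead core GTAAACA, searched on both strands, was in 290 of them (2.67%). It was in 47 of 1761 promoters of genes called higher (2.67%, Wilson interval 2.01% to 3.53% at a confidence level of 0.95) and in 53 of 1804 of genes called lower (2.94%, 2.25% to 3.82%). The share among genes not called was 2.60%, which lay within both intervals. The promoters of Bbc3 (1.29 on the log2 scale) and Mdm2 (0.57), targets of p53 that rose in the KO, and of Cdx2 (-3.26), a streak and posterior gene that fell, are shown because they hold the core. The Sp5 promoter is shown for the TCF/LEF core CTTTGAT, the motif of the Wnt effectors, since Sp5 is a target of Wnt signalling that fell (-2.70). That core was added after the data were seen, and was in 2.86% of all promoters, 2.84% of those called higher and 3.10% of those called lower. Sequences run 5′ to 3′ on the strand of the gene, the capitals mark the core or its reverse complement, and a match is a description of letters, not a site. Cdx2 lost the call with any 1 of the 4 libraries left out (adjusted p up to 0.16).
Bbc3, chr7:16310011-16310260, plus strand: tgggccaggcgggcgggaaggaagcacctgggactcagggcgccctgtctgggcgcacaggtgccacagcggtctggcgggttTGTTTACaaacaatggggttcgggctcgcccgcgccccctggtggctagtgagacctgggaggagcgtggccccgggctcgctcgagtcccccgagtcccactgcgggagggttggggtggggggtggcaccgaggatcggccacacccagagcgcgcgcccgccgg
Mdm2, chr10:117710759-117711008, minus strand: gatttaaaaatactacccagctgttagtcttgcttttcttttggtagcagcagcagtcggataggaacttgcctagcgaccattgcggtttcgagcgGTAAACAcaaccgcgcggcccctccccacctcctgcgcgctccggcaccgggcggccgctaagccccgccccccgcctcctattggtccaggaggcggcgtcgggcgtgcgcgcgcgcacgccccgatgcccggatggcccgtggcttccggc
Cdx2, chr5:147307250-147307499, minus strand: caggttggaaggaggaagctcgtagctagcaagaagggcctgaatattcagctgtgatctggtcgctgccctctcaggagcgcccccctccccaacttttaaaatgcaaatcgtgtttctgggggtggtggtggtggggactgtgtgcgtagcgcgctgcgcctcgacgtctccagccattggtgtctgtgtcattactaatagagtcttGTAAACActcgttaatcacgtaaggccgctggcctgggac
Sp5, chr2:70474673-70474922, plus strand: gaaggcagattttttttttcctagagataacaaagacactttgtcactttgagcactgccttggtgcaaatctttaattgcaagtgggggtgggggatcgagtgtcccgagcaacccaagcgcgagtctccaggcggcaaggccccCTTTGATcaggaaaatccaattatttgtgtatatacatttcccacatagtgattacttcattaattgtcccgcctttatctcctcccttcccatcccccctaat

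Of the core genes of the pluripotent state 5 of 15 were called in the main fit, near its share of all genes tested (32.9%). Pou5f1, the factor Oct4 that holds stem cells undifferentiated, was at 1022 and 1025 CPM in the control and 1046 and 1098 CPM in the KO, a difference of 0.07 ± 0.31 that was not called. Nanog was at 223 and 222 CPM in the control and 251 and 269 CPM in the KO and Sox2 at 54.7 and 53.6 CPM in the control and 79.9 and 76.2 CPM in the KO, and neither was called. In this core list 4 rose and 1 fell, with a median log2 fold change of 0.30, and of 18 naive genes 1 rose and 3 fell. With the day 3 libraries fitted alone, 11 core genes rose and 3 fell, and 4 naive genes rose and 9 fell. That fit called 7334 genes in all, against 4741 in the main fit. The nearness of the core list to the share of all genes is therefore a statement about the main fit alone. Zfp42 (Rex1), a marker of the naive state, fell from 38.2 and 34.1 to 11.7 and 10.6 CPM (-1.69 ± 0.19), while Esrrb, at 40.6 and 33.4 CPM in the control and 32.6 and 35.4 CPM in the KO, and Klf4, at 6.87 and 6.604 CPM in the control and 3.27 and 5.49 CPM in the KO, were not called. Genes of the primed epiblast, the state that comes before the streak, were more often higher: 7 of 14 rose and 2 fell, with a median of 0.54. Pou3f1 (Oct6), a factor of primed and neural epiblast, rose from 11.5 and 10.2 to 63.5 and 65.6 CPM (2.57 ± 0.14, adjusted p 1.7e-06). Sall2 rose by 1.19 and the methyltransferase Dnmt3a by 0.45. The primed markers Fgf5 (126 and 133 CPM in the control and 75.6 and 77.3 CPM in the KO) and Otx2 (171 and 161 CPM in the control and 67.03 and 71.5 CPM in the KO) lay lower in both KO libraries without being called. Zfp281 was the 1 core gene that stayed called with each library left out in turn. In fits that left out 1 library, 1 rose and 0 fell in the core list and 4 to 5 rose and 0 fell in the primed list.

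Primitive streak genes formed the list with the lowest median, -3.59 over 18 tested: 15 fell and none rose. Lhx1, a homeobox factor of the anterior streak and early mesendoderm, was at 319 and 335 CPM in the control and 1.68 and 1.77 CPM in the KO (-7.55 ± 0.83). Gsc, the organizer homeobox factor, was at 50.1 and 48.4 CPM in the control and 1.41 and 2.45 CPM in the KO (-4.66 ± 0.24, adjusted p 1.1e-06). Both KO libraries of either gene lay far below the controls. Mesp2, which patterns forming somites, fell from 14.9 and 17.5 to 0.265 and 0.338 CPM (-5.69 ± 0.41). Wnt3, the ligand needed to start the streak, fell to a lesser extent, from 95.1 and 91.9 to 23.97 and 26.1 CPM (-1.90 ± 0.12). Eomes, the T-box factor of the early streak, was at 638 and 663 CPM in the control and 140.3 and 165 CPM in the KO (-2.09 ± 0.35), and so was lower but still well expressed in the KO. Cer1, a secreted inhibitor of Nodal, BMP and Wnt made by anterior mesendoderm, was at 27.6 and 23.1 CPM in the control and at 0 counts in both KO libraries. Against 3 counts over the KO group it was at least 196-fold lower, yet it was not called (adjusted p 0.055), while DESeq2 gave an adjusted p of 7.1e-07. Fgf17, at 17.9 and 16.3 CPM in the control and 12.6 and 13.7 CPM in the KO, and Nkx1-2, at 8.36 and 7.13 CPM in the control and 11.4 and 12.4 CPM in the KO, were the other members not called. Eomes lost the call with any 1 of the 4 libraries left out (adjusted p up to 0.074).

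The Nodal pathway moved in both directions. Nodal itself, the ligand that induces the streak with Wnt3, was at 104 and 107 CPM in the control and 119 and 117 CPM in the KO and was not called (0.16 ± 0.14, adjusted p 0.41). Of 18 pathway genes 3 rose and 7 fell, with a median of -0.17, and 2 to 3 rose and 4 to 6 fell with 1 library left out. The 2 Lefty genes, secreted antagonists that Nodal signalling itself switches on, parted. Lefty1 rose from 34.3 and 29.1 to 165 and 153 CPM (2.33 ± 0.36), and Lefty2 fell from 125 and 119 to 85.5 and 80.3 CPM (-0.56 ± 0.11). The co-receptor gene Cfc1 fell from 11.5 and 9.25 to 0.442 and 0.0845 CPM, and its relative Tdgf1 (Cripto), which has near-identical copies and is therefore uncertain, from 702 and 686 to 274 and 289 CPM. The signal carriers moved little: the log2 fold changes of Smad4, Smad2 and the partner factor Foxh1, which all fell, were -0.45, -0.35 and -0.43, and Smad3 was not called. The convertases that mature Nodal both rose, Pcsk6 from 11.97 and 12.2 to 31.5 and 29.1 CPM and Furin from 61.9 and 58.5 to 77.6 and 77.8 CPM. Lefty1 lost the call without control library 1 or control library 2 (adjusted p up to 0.067). Lefty2 lost the call without KO library 2 or control library 1 (adjusted p up to 0.063). Tdgf1 lost the call with any 1 of the 4 libraries left out (adjusted p up to 0.15).

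Of 20 genes listed for the change from epithelium to mesenchyme, 8 rose and 5 fell. Snai1, the repressor that turns off junction genes as cells leave the epiblast, was at 80.03 and 85.4 CPM in the control and 3.63 and 6.93 CPM in the KO (-3.96 ± 0.35). Cdh1, which encodes the epithelial E-cadherin, rose from 385 and 379.7 to 694 and 678 CPM (0.84 ± 0.16), and Cdh2, which encodes the mesenchymal N-cadherin, fell from 266 and 273 to 29.7 and 27.2 CPM (-3.24 ± 0.09, adjusted p 1.1e-08). The groups lay apart in all 3 genes. The tight junction and polarity genes Cldn7, Crb3 and Ocln rose as well, Cldn7 by 1.13, Crb3 by 1.54 and Ocln by 1.66 on the log2 scale. The matrix protein fibronectin, encoded by Fn1, fell from 2354 and 2342 to 428 and 416 CPM (-2.47 ± 0.21), and Cdh11, another mesenchymal cadherin, from 108 and 118 to 4.33 and 5.66 CPM. Cdh11 is in a family of 9 genes joined by near-identical sequence, so its value is uncertain. Summed over that family the log2 fold change was -1.10, from 445 and 467 CPM in the control to 213.5 and 212 CPM in the KO. Mmp2, a matrix protease of mesenchyme, rose from 28.4 and 25.6 to 50.7 and 47.9 CPM. The repressor Zeb1 (6.25 and 8.28 CPM in the control and 5.48 and 5.24 CPM in the KO) and the filament gene Vim (209 and 203 CPM in the control and 167 and 166 CPM in the KO) were not called. Of 20 basement membrane genes 4 rose, among them Agrn (0.46) and Col18a1 (0.93), and Fn1 was the 1 that fell. With 1 library left out, 3 to 4 rose and 5 fell in the first list and 1 to 2 rose and 1 fell in the second. Cdh1 lost the call without KO library 1, control library 1 or control library 2 (adjusted p up to 0.07). Mmp2 and Col18a1 lost the call with any 1 of the 4 libraries left out (adjusted p up to 0.18 and 0.092 in that order).

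**Figure D2:**
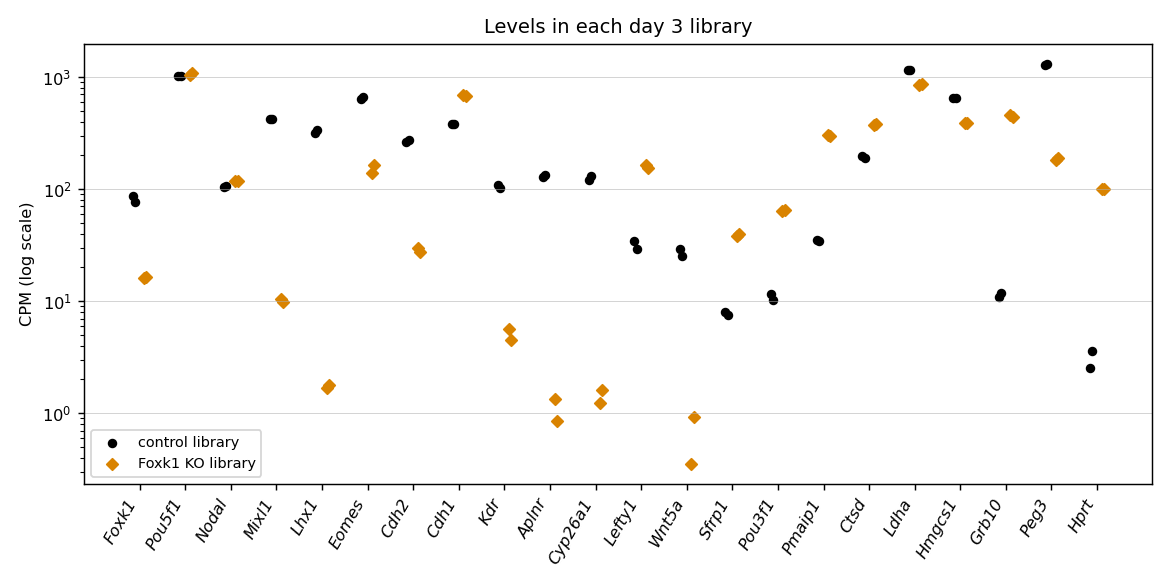
CPM on a log axis in each of the 4 day 3 libraries, with 2 control libraries as black dots and 2 KO libraries as orange diamonds, for 22 named genes. The 2 libraries of a group lay close together; Mixl1, Lhx1, Kdr, Aplnr, Cyp26a1 and Wnt5a lay far below the control in the KO, Lefty1, Pou3f1, Pmaip1, Grb10 and Hprt lay above it, and Pou5f1 and Nodal lay near it.

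Genes of tissues that follow the streak were lower at day 3. In the cardiac mesoderm list 0 rose and 11 fell of 19 tested, with a median of -3.16, and the summed level of the list was 457 and 443 CPM in the control and 29.5 and 25.1 CPM in the KO. Pdgfra, a receptor of cardiac and paraxial progenitors, was at 73.4 and 73.2 CPM in the control and 0.884 and 1.94 CPM in the KO (-5.67 ± 0.36). Kdr, the VEGF receptor of the earliest blood and vessel progenitors, was at 109 and 102 CPM in the control and 5.66 and 4.48 CPM in the KO (-4.38 ± 0.46). Both KO libraries of either gene were at a few CPM or less. Aplnr, the apelin receptor of gastrulating mesoderm, fell from 129.5 and 134 to 1.33 and 0.845 CPM (-6.92 ± 0.30), and the heart field factor Isl1 from 4.23 and 3.35 to 0.0884 and 0.0845 CPM. Six2, a homeobox factor of head and kidney mesenchyme, fell from 20.6 and 23.6 to 0.177 and 0.423 CPM and Prdm6, a smooth muscle regulator, from 12.3 and 14.4 to 0.0884 and 0.254 CPM. In the paraxial list 0 rose and 8 fell of 12 tested. Its members Rspo3, a secreted enhancer of Wnt signalling, and Dll3, a Notch ligand of the presomitic mesoderm, fell, with log2 fold changes of -3.26 and -2.81. Of the genes of heart muscle fibres, Myl7 fell from 3.96 and 3.17 to 0.707 and 0.507 CPM and Actc1 from 10.9 and 10.4 to 5.84 and 5.24 CPM, while Tnnt2, at 0.176 and 0.264 CPM in the control and 0.265 and 0.0845 CPM in the KO, was near the 3-count level in both lines. Myl7 lost the call without KO library 2 (adjusted p up to 0.063). Actc1 lost the call with any 1 of the 4 libraries left out (adjusted p up to 0.13).

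The blood and endothelium list was mixed: 1 rose and 3 fell of 20 tested, and 0 rose and 2 to 3 fell with 1 library left out. Beside Kdr, Etv2, the master factor of vessel and blood progenitors, fell from 21.7 and 21.5 to 6.102 and 6.42 CPM, while Tal1 was at 4.402 and 3.26 CPM in the control and 3.54 and 4.31 CPM in the KO and was not called. Cd34 rose from 1.497 and 2.55 to 6.102 and 5.41 CPM. Definitive endoderm genes fell in 9 of 15 cases and rose in 2. Cxcr4, a chemokine receptor of definitive endoderm and mesoderm, fell from 24.5 and 24.1 to 1.59 and 1.099 CPM (-4.17 ± 0.23), Sox17 from 8.805 and 9.86 to 0.796 and 0.169 CPM (-4.26 ± 0.63), and Foxa2, of axial mesendoderm, from 43.2 and 49.8 to 7.78 and 11.5 CPM. Trh, listed with endoderm, was at 413 and 386 CPM in the control and 1036 and 1092 CPM in the KO and was not called. The summed level of the list, in which Trh holds the most counts in the KO, was 870.3 and 832 CPM in the control and 1396 and 1445 CPM in the KO, opposite in direction to the count. Markers of visceral and parietal endoderm did not follow: against 16% and 16.9% of all genes, 4 of 19 rose and 1, Pdgfra, fell. Their defining genes Afp, Ttr and Hnf4a were at or near 0 in all 4 libraries, and Apoe rose from 270.2 and 258 to 529 and 531 CPM. In refits without 1 of the libraries, 1 rose and 6 fell in the definitive endoderm list and 1 to 3 rose and 1 to 2 fell in the visceral and parietal list. Etv2 lost the call without KO library 1 or KO library 2 (adjusted p up to 0.058). Cd34 and Foxa2 lost the call with any 1 of the 4 libraries left out (adjusted p up to 0.16 and 0.14 in that order).

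Retinoic acid genes included one of the deepest falls. Cyp26a1, the enzyme that clears retinoic acid from the streak and tail bud, was at 121 and 131 CPM in the control and 1.24 and 1.61 CPM in the KO (-6.46 ± 0.96, adjusted p 0.0089). Crabp2, which carries retinoic acid to its receptors, rose from 3.96 and 5.55 to 10.2 and 9.04 CPM, and Dhrs3, which turns retinal back to retinol, from 3.43 and 2.11 to 8.22 and 7.69 CPM. Against 16% and 16.9% of all genes, 3 rose and 4 fell of 15 tested over the list. That became 0 to 2 rose and 1 to 3 fell with 1 library left out. Posterior identity genes were low in both lines: of 19 Hox and Cdx genes tested, 1 rose and 2 fell, Cdx1 and Hoxb1, shares below those over all genes. Cdx1 was at 5.72 and 5.899 CPM in the control and 1.68 and 1.69 CPM in the KO, and Hoxb1 at 5.11 and 4.14 CPM in the control and 1.15 and 1.69 CPM in the KO. Cyp26a1 lost the call without KO library 1 (adjusted p up to 0.051). Crabp2 and Hoxb1 lost the call without KO library 1 or control library 1 (adjusted p up to 0.085 and 0.1 in that order). Dhrs3 lost the call without KO library 1 or control library 2 (adjusted p up to 0.078).

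Wnt ligands were split by member. Of 14 tested, 7 fell and 4 rose, with a median of -1.22, and DESeq2 called 2 higher. Wnt5a, which drives cell movements through a branch that does not need beta-catenin, was at 29.1 and 25.5 CPM in the control and 0.354 and 0.9296 CPM in the KO (-5.37 ± 0.99), and Wnt3a, the posterior streak ligand, at 10.7 and 8.54 CPM in the control and 0.354 and 0.338 CPM in the KO (-4.76 ± 0.50). In both ligands the KO libraries were at or below 1 CPM. Wnt2b (-3.41), Wnt2 (-4.67) and Wnt5b (-1.91) fell as well. Wnt8a, another streak ligand, was instead slightly higher, from 55.9 and 52.5 to 65.3 and 68.3 CPM (0.30 ± 0.09), and Wnt10b rose from 0.352 and 0.352 to 2.21 and 2.54 CPM. Wls, which carries all Wnt ligands to the cell surface, fell from 103 and 109 to 57.5 and 59.3 CPM (-0.86 ± 0.07). When 1 library was dropped, 1 to 2 rose and 6 fell. Wnt5a and Wnt8a lost the call with any 1 of the 4 libraries left out (adjusted p up to 0.077 and 0.2 in that order).

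Of 25 receptors and effectors of the pathway tested, 4 rose and 6 fell, with a median of -0.08, and DESeq2 called 2 higher. Ctnnb1, which encodes beta-catenin, was at 879 and 892 CPM in the control and 973 and 953 CPM in the KO (0.12 ± 0.04), the receptor Fzd1 at 11.4 and 14.5 CPM in the control and 5.22 and 5.75 CPM in the KO (-1.24 ± 0.20), and Dvl1, the Dishevelled adaptor, rose by 0.51. Of 17 secreted and membrane inhibitors 3 rose and 3 fell, shares near the 16% and 16.9% of all genes. Frzb, a decoy receptor, fell from 94.4 and 95.3 to 2.21 and 3.63 CPM (-5.01 ± 0.96), while Shisa3 rose from 3.17 and 3.17 to 11.3 and 11.2 CPM. Another decoy, Sfrp1, lay higher in both KO libraries, at 8.01 and 7.48 CPM in the control and 38.2 and 40.1 CPM in the KO, but was not called (adjusted p 0.13). Among 20 Wnt target genes 11 fell and none rose, with a median of -1.25. Sp8 was at 43.1 and 47.6 CPM in the control and 11.8 and 15.6 CPM in the KO (-1.72 ± 0.15), Nkd1 at 30.02 and 30.9 CPM in the control and 9.37 and 10.3 CPM in the KO (-1.63 ± 0.29), and Myc at 79.6 and 84.7 CPM in the control and 36.3 and 36.2 CPM in the KO (-1.18 ± 0.21). Ccnd1 (198 and 203 CPM in the control and 281 and 283 CPM in the KO) and Tcf7 (176 and 181 CPM in the control and 159 and 163 CPM in the KO), also taken as Wnt targets, were not called. In fits that left out 1 library, 1 to 2 rose and 2 to 3 fell among receptors and effectors, 1 rose and 2 fell among inhibitors and 0 rose and 7 to 9 fell among targets. Ctnnb1 and Frzb lost the call with any 1 of the 4 libraries left out (adjusted p up to 0.24 and 0.092 in that order). Nkd1 lost the call without KO library 1 (adjusted p up to 0.054). Myc lost the call without KO library 1 or KO library 2 (adjusted p up to 0.051).

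Ligands and feedback genes of the FGF pathway mostly fell: 1 rose and 13 fell of 23 tested, with a median of -0.48. Fgf10, of cardiac and pharyngeal mesoderm, was at 44.6 and 42.6 CPM in the control and 1.95 and 2.37 CPM in the KO (-4.33 ± 0.40), and Fgf8, the streak ligand needed for cells to move away, at 117 and 121 CPM in the control and 36.6 and 40.6 CPM in the KO (-1.62 ± 0.21). The phosphatase Dusp4, which ERK signalling induces, fell (-1.60), as did the inhibitors Spry4 (-0.93) and Spred1 (-0.51). The main receptor Fgfr1, at 202 and 196 CPM in the control and 201 and 184 CPM in the KO, was not called. With 1 library left out, 0 rose and 8 to 9 fell.

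BMP ligands fell together with several of their targets. Bmp4, the ligand that patterns posterior mesoderm, was at 14.4 and 14.4 CPM in the control and 2.03 and 2.62 CPM in the KO (-2.62 ± 0.43), Bmp2 at 9.07 and 8.89 CPM in the control and 0.442 and 1.18 CPM in the KO (-3.43 ± 0.45) and Bmp7 at 36.98 and 36.98 CPM in the control and 11.6 and 9.63 CPM in the KO (-1.80 ± 0.27). The groups lay well apart in all 3 ligands. The signal carrier Smad1 fell from 90.9 and 94.7 to 30.95 and 26.1 CPM (-1.70 ± 0.11, adjusted p 5.0e-06), as did the target Msx2 (-3.13) and the target Id1 from 47.98 and 50.9 to 26.97 and 24.5 CPM. Genes of 2 secreted antagonists fell too: Fst, which encodes follistatin, from 449 and 478 to 168 and 189 CPM (-1.37 ± 0.17), and Chrd, which encodes chordin, from 25.4 and 25.4 to 4.07 and 3.97 CPM. Another target, Id2, rose from 10.6 and 8.54 to 18.7 and 15.97 CPM, and the receptor Bmpr1a rose by 0.24, so that over the list 2 rose and 12 fell of 23 tested. In refits without 1 of the libraries, 0 to 1 rose and 9 to 10 fell. Chrd and Bmpr1a lost the call with any 1 of the 4 libraries left out (adjusted p up to 0.15 and 0.095 in that order). Id2 lost the call without KO library 1 or control library 2 (adjusted p up to 0.057).

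Ligands of the Notch pathway were split as well. Jag1 fell from 52.9 and 54.6 to 18.04 and 15.9 CPM (-1.66 ± 0.22) and Dll1 from 21.3 and 22.9 to 4.24 and 3.72 CPM (-2.47 ± 0.38), and the Notch target Nrarp fell by 1.42. The ligand gene Jag2 rose from 25.9 and 27.6 to 77.6 and 74.5 CPM, the receptor gene Notch3 rose from 197 and 175 to 279.9 and 279.7 CPM, and Notch1 was not called, so that 3 rose and 8 fell of 16 tested. In the hedgehog pathway, which acts little before a node and notochord form, 1 gene rose and 4 fell of 14. The shares over all genes were 16% and 16.9%. Gas1, a co-receptor, was at 59.3 and 63.6 CPM in the control and 7.16 and 9.21 CPM in the KO (-2.90 ± 0.14, adjusted p 8.2e-07). The target genes Ptch1 (65.9 and 59.5 CPM in the control and 77.9 and 82.8 CPM in the KO) and Gli1 (10.6 and 9.16 CPM in the control and 15.3 and 13.01 CPM in the KO) were not called. The ligand gene Ihh was at 0 counts in both controls and at 0.619 and 0.592 CPM in the KO, at least 4.58-fold higher against 3 counts over the control group.

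**Figure D3:**
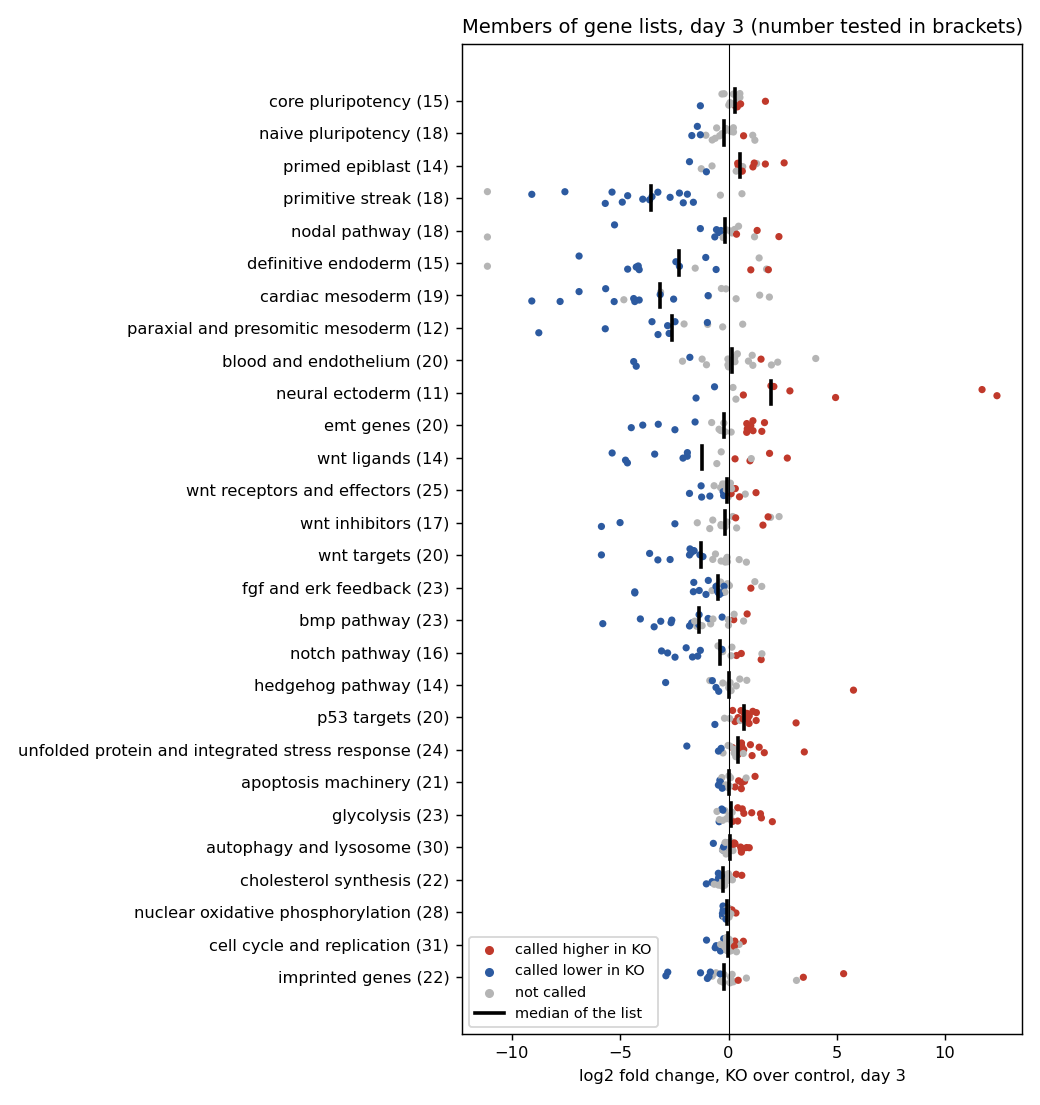
Each point is a gene of one of 28 lists, with its log2 fold change of KO over control at day 3 on the x axis; red and blue points were called higher and lower, grey points were not called, and the black bar is the list's median. The primitive streak, cardiac and paraxial lists lie farthest left, with medians of -3.59, -3.16 and -2.61, and the neural and p53 lists lie right, with medians of 1.96 and 0.70.

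Neural and epiblast-derived ectoderm genes were higher: 7 rose and 2 fell of 11 tested, with a median of 1.96. Sox1, the earliest factor of the neural plate, was at 0.08804 and 0.176 CPM in the control and 3.98 and 4.82 CPM in the KO (4.94 ± 0.77), and its relative Sox3 at 3.698 and 3.52 CPM in the control and 14.4 and 13.7 CPM in the KO (1.96 ± 0.34). Tubb3, a neuronal tubulin, was at 8.89 and 10.6 CPM in the control and 43.1 and 40.1 CPM in the KO (2.09 ± 0.30). All 3 were well above the controls in both KO libraries, though Sox1 stayed at a few CPM. The eye and forebrain factor Pax6 rose from 0.08804 and 0.352 to 1.41 and 1.86 CPM. Nes, which encodes nestin, rose by 0.68, and Zic5 and Fabp7 fell. The largest rises of the list, Olig1 and Olig2, were at 0 counts in both controls. These 2 genes lie next to each other on chromosome 16. When 1 library was dropped, 5 to 7 rose and 0 fell. Pax6 lost the call without KO library 2 or control library 1 (adjusted p up to 0.088). Nes lost the call without control library 1 or control library 2 (adjusted p up to 0.058). Zic5 and Fabp7 lost the call with any 1 of the 4 libraries left out (adjusted p up to 0.17 and 0.18 in that order).

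Of 20 genes listed as p53 targets, with Trp53 included, 16 rose, against 16% of all genes. Trp53 itself, which encodes p53, was at 364 and 356 CPM in the control and 376 and 371 CPM in the KO and was not called. Phlda3, an Akt inhibitor, was at 21.9 and 22.2 CPM in the control and 46.5 and 49.5 CPM in the KO (1.12 ± 0.11), Trp53inp1 at 125 and 121 CPM in the control and 236 and 212 CPM in the KO (0.86 ± 0.06), and Mdm2, the ligase that degrades p53, at 67.97 and 66.5 CPM in the control and 103 and 96.9 CPM in the KO (0.57 ± 0.08). Cdkn1a, which encodes the cell cycle inhibitor p21, rose less, from 55.9 and 58.99 to 79.1 and 76.6 CPM (0.44 ± 0.10). The nuclease gene Aen was the target that fell (-0.63). Genes of cell death itself went both ways, 6 rose and 5 fell of 21 tested, against 16% and 16.9% of all genes. DESeq2 called 2 of them lower. The killers Bcl2l11 (Bim) and Bmf rose by 0.74 and 0.59, and so did the protectors Bcl2, from 5.899 and 5.81 to 13.8 and 13.6 CPM, and Mcl1, from 164 and 168 to 253 and 254 CPM. The protector Bcl2l1 fell by 0.40. In fits that left out 1 library, 12 to 13 rose and 1 fell among p53 targets and 5 rose and 1 to 4 fell among death genes. Cdkn1a lost the call with any 1 of the 4 libraries left out (adjusted p up to 0.097). Bcl2l1 lost the call without KO library 2 or control library 2 (adjusted p up to 0.059).

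Of 24 genes of the unfolded protein and integrated stress responses 14 rose and 3 fell, with a median of 0.44. Calr, which encodes calreticulin, was at 494 and 521 CPM in the control and 742 and 740.3 CPM in the KO (0.55 ± 0.05), and Hsp90b1, an endoplasmic chaperone, at 635 and 634 CPM in the control and 973 and 967 CPM in the KO (0.61 ± 0.06). Hspa5, the chaperone BiP, rose by 0.70, and the disulfide isomerases Pdia4 and Pdia6 rose by 0.59 and 0.60, while the co-chaperones Dnajb9 (-0.02) and Sdf2l1 (0.25) were not called. Atf4, the factor of the integrated stress response, rose from 181 and 169 to 238 and 239 CPM (0.44 ± 0.05). Its targets parted: Trib3 rose from 10.8 and 7.57 to 25.2 and 23.9 CPM, while Slc7a11, a cystine importer, fell from 8.54 and 9.25 to 2.299 and 2.37 CPM and Shmt2, of serine breakdown, from 167 and 163 to 118 and 121 CPM.

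Sugar uptake and glycolysis genes did not move in one direction: 9 rose and 3 fell of 23 tested, with a median of 0.12. The glucose carrier Slc2a3 rose from 353 and 334 to 999 and 910 CPM (1.47 ± 0.09), the hexokinase Hk1 from 22.6 and 24.7 to 37.9 and 39.5 CPM and the lactate exporter Slc16a3 from 126 and 122 to 251 and 271 CPM. Eno2, an enolase, rose from 4.14 and 5.02 to 19.6 and 17.7 CPM. Ldha, which makes lactate, fell from 1153 and 1168 to 846 and 874 CPM (-0.43 ± 0.11), and Hk2 (173 and 182 CPM in the control and 155 and 161 CPM in the KO), Pgk1 (461 and 468 CPM in the control and 463 and 473 CPM in the KO) and Pkm (3084 and 3136 CPM in the control and 3222 and 3248 CPM in the KO) were not called. Eno1, Gapdh, Pgk1 and Pkm have near-identical copies in the genome, so their values are uncertain. Of 28 nuclear genes of oxidative phosphorylation 7 fell and 2 rose, with log2 fold changes from -0.28 to 0.34 (Sdhd, a complex II subunit), and DESeq2 called 1 higher and 0 lower. By edgeR none of the 13 mitochondrially encoded genes was called, with 1 at an unadjusted p under 0.05, and DESeq2 called 1. With 1 library left out, 6 to 7 rose and 1 fell in glycolysis and 1 rose and 2 to 3 fell in oxidative phosphorylation. Ldha also lost its call with library totals in place of the scaling (adjusted p 0.057) and with no filter (0.11). Ldha lost the call with any 1 of the 4 libraries left out (adjusted p up to 0.12).

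Of 30 autophagy and lysosome genes tested, 10 rose and 4 fell, and DESeq2 called 8 higher and 1 lower. The lysosomal proteases Ctsd, Ctsb and Ctsl rose, Ctsd from 199 and 189 to 375 and 379 CPM (0.96 ± 0.06), Ctsb by 0.59 and Ctsl by 0.59, and Tfe3, a factor that activates lysosomal genes, rose from 94.4 and 104 to 153 and 149 CPM. Sqstm1, the cargo receptor p62, rose from 174 and 175 to 319 and 302 CPM (0.83 ± 0.05, adjusted p 3.4e-06). The kinase Ulk1, which starts autophagy, was at 93.9 and 92.98 CPM in the control and 97.98 and 103 CPM in the KO and was not called, nor was Becn1 at 63.8 and 68.6 CPM in the control and 60.6 and 64.4 CPM in the KO. Ulk2, a relative of Ulk1, fell by 0.70. In cholesterol synthesis 7 of 22 fell and 2 rose. Hmgcs1, an early enzyme, fell from 655 and 646 to 391 and 391 CPM (-0.73 ± 0.17). In refits without 1 of the libraries, 8 to 9 rose and 1 fell in the autophagy and lysosome list and 0 to 1 rose and 2 to 3 fell in cholesterol synthesis. Hmgcs1 lost the call with any 1 of the 4 libraries left out (adjusted p up to 0.1).

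Cell cycle genes were near the background: 3 rose and 5 fell of 31 tested, with a median of -0.01. Mki67 was at 363 and 354 CPM in the control and 349 and 349.9 CPM in the KO and was not called. Among the cyclins, Ccnd2 fell from 50.4 and 49.5 to 22.2 and 27.1 CPM and Ccne1 rose from 111 and 117 to 184 and 182 CPM. Hypoxia genes went both ways, with a fall of Ndrg1 (-1.92) and a rise of Vegfa (0.92). Among Polycomb and DNA methylation genes Bmi1, a subunit of Polycomb complex 1, fell from 18.8 and 18.5 to 6.898 and 5.75 CPM (-1.56 ± 0.14), and Cbx7, another subunit, rose from 133 and 127 to 251 and 263 CPM. Of the BAF chromatin remodeller 5 of 21 genes fell and none rose, and DESeq2 called 2 lower. Dpf3, a subunit of heart and muscle, fell (-3.91), and so did Arid1a (-0.28). When 1 library was dropped, 0 rose and 1 to 3 fell in BAF. Cbx7 lost the call without KO library 2, control library 1 or control library 2 (adjusted p up to 0.072). Arid1a lost the call without KO library 1 (adjusted p up to 0.051).

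Imprinted genes held some of the largest changes, 3 rose and 7 fell of 22 tested. Grb10, an adaptor that restrains insulin signalling, was at 10.9 and 11.7 CPM in the control and 460.4 and 441 CPM in the KO (5.31 ± 0.11, adjusted p 6.9e-09). Plagl1, a growth-restraining zinc finger factor, was at 1.94 and 1.85 CPM in the control and 20.6 and 21.1 CPM in the KO (3.45 ± 0.22). Both were far higher in each KO library. Peg3, a zinc finger gene expressed from the paternal copy, was at 1279 and 1309.8 CPM in the control and 180.3 and 189.7 CPM in the KO (-2.81 ± 0.16), and its neighbour Usp29 at 29.1 and 28.8 CPM in the control and 4.51 and 3.296 CPM in the KO (-2.89 ± 0.17), both lower in the KO. Zdbf2 fell from 349.9 and 342 to 189 and 182 CPM and Peg10 from 582 and 550 to 229 and 233 CPM. Igf2 (52.1 and 45.96 CPM in the control and 57.04 and 53.2 CPM in the KO) and its receptor Igf2r (156 and 155 CPM in the control and 181 and 182 CPM in the KO) were not called.

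Markers of other cells the samples could hold were read in every library. The feeder fibroblast list summed to 251 and 253 CPM in the control and 220.3 and 222 CPM in the KO. Of its 16 genes 2 rose and 2 fell, and Lum was at 0 in all 4 libraries. Postn was at 0 and 0.176 CPM in the control and 0.0884 and 0 CPM in the KO, and Col1a1 was at 2.55 and 2.03 CPM in the control and 4.42 and 5.41 CPM in the KO. Cdh11, which mesoderm also expresses and which has near-identical copies, held the most counts of the list in the control but not in the KO. Without Cdh11 the list summed to 142 and 135 CPM in the control and 216 and 216 CPM in the KO, higher in both KO libraries, with Tagln at 59.2 and 52.9 CPM in the control and 114 and 111 CPM in the KO and Mmp2 the largest parts in the KO. Trophoblast markers summed to 902 and 926 CPM in the control and 372 and 378 CPM in the KO, with 2 of 11 genes higher and 5 lower, and without Eomes, also a streak gene, they summed to 264 and 263 CPM in the control and 232 and 212 CPM in the KO. Germ cell genes summed to 73.4 and 76.2 CPM in the control and 73.3 and 69.04 CPM in the KO. In fits that left out 1 library, 0 to 1 rose and 2 to 3 fell among trophoblast markers and 1 rose and 2 fell among feeder markers. The part of such cells in the results above was not tested.

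Several large differences lay in genes of other kinds. All 5 Y-linked genes tested were higher in the KO: Ddx3y stood at 4.402 and 4.49 CPM in the control and 50.2 and 50.96 CPM in the KO and Uty at 2.64 and 2.99 CPM in the control and 32.2 and 32.03 CPM in the KO. Hprt, the X-linked enzyme of purine salvage that nearly all cells express, was at 2.55 and 3.61 CPM in the control and 101 and 100.2 CPM in the KO (5.02 ± 0.22). Olig1 was at 0 counts in the controls and at 61.6 and 60.1 CPM in the KO, at least 461-fold higher against 3 counts over the control group, and Mx1, an interferon-induced gene on the same chromosome, was at 1.14 and 1.32 CPM in the control and 70.6 and 84.1 CPM in the KO. In the interferon list 4 rose and 8 fell of 16, and 2 to 4 rose and 4 to 6 fell with 1 library left out. Ifitm1 fell from 68.6 and 64.1 to 12.6 and 12.6 CPM and Usp18 from 3.17 and 3.43 to 0.177 and 0.0845 CPM. Cfap53, a gene of motile cilia, was at 0.528 and 0.264 CPM in the control and 34.6 and 36.6 CPM in the KO, while Foxj1, the master factor of motile cilia, was at 2.11 and 2.29 CPM in the control and 2.74 and 1.69 CPM in the KO and was not called.

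Changes were spread over the genome. Median log2 fold changes of chromosomes ran from -0.08 on X to 0.04 on chromosome 4. On X 22.6% of the protein-coding genes tested were lower and 12.4% higher, against 16.9% and 16% of all genes. Of 267 windows of 10 Mb with at least 5 protein-coding genes tested, 13 had a median beyond 0.25 in either direction. The lowest was the first 10 Mb of chromosome 3, where 8 of 11 genes were lower, with a median of -0.44. The highest was 110 to 120 Mb of chromosome 14, where 6 of 11 genes were higher, with a median of 0.50.

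Some of the largest changes of single genes lay in families of genes joined by near-identical sequence. A pair was joined where the shorter transcript matched, and pairs were chained. Members of a family therefore need not be near-identical to each other over their whole length. Ftl1, the ferritin light chain, was at 18.6 and 14.2 CPM in the control and 4079 and 4132 CPM in the KO (7.97 ± 0.22), while its 5 copies together were at 2154 and 2040.5 CPM in the control and 23.8 and 23.7 CPM in the KO. Summed over the family, the log2 fold change was 0.97 ± 0.04. In Kpna2, a nuclear import factor, the single gene rose by 5.23 and the sum with its copy by 0.17. For Hmga1, a chromatin protein, the values were 2.19 and 0.33, and for the enolase Eno1 1.52 and 0.13. Ahcy, which recycles S-adenosylhomocysteine, went from a rise of 4.96 to a summed difference of -0.12. The ribosomal gene Rplp0 rose by 3.40 alone and by 1.53 when summed. Of 445 families tested, 99 had a member past a doubling or halving, and the sum of 27 of these was past it. The median size of the summed change over the 99 was 0.35. Of the 4741 called genes, 356 are in such a family (7.51%), against 6.71% of all genes tested. Of the 1611 called past a doubling or halving, 190 are in one, a larger share than among all called genes or all genes tested.

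**Figure D4:**
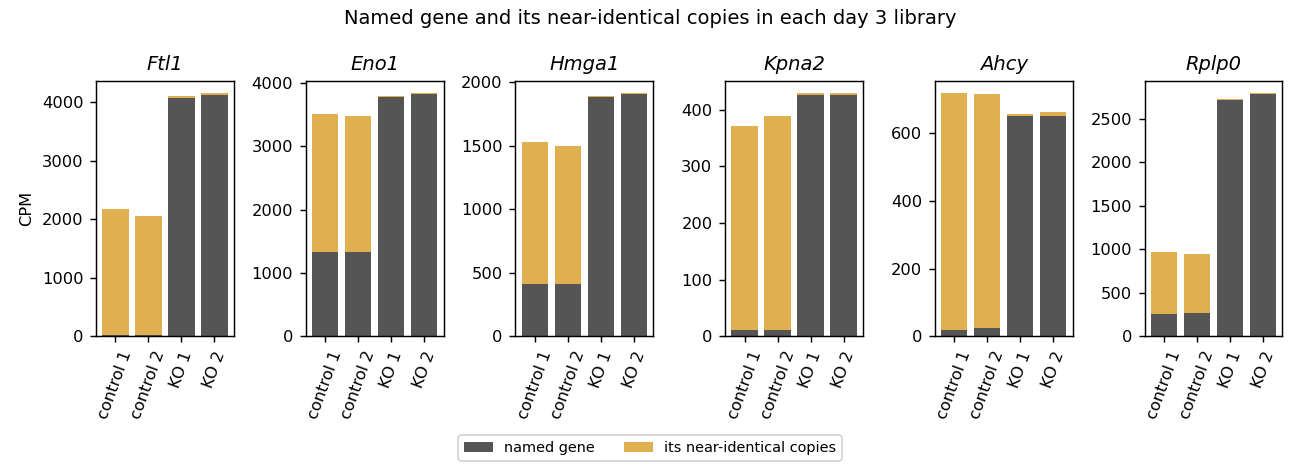
Stacked bars give the CPM of 6 named genes (grey) and of their near-identical copies (yellow) in each of the 4 day 3 libraries, on axes that start at 0. In the control libraries most of the counts lay on the copies and in the KO libraries nearly all lay on the named gene, while the height of the whole bar differed little for Eno1, Kpna2 and Ahcy and more for Ftl1 and Rplp0.

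The same contrast at day 5, made from other libraries, is given beside day 3 for 16 index genes. The difference between the KO effects of the 2 days was called in 12 of 16, against 24.2% of all genes tested. Mixl1 went from -5.38 ± 0.11 at day 3 to 3.32 ± 0.20 at day 5, when the control had dropped to a mean of 1.64 CPM and the KO stood at 16.5 CPM. Eomes went from -2.09 ± 0.35 to 3.19 ± 0.46, and Pou5f1 from 0.07 ± 0.31 to 2.65 ± 0.39. T went from -3.64 ± 0.41 to 1.77 ± 0.53, and its day 5 value was not called (edgeR adjusted p 0.054). Gata6, a mesoderm and endoderm factor, went from -6.90 ± 0.15 at day 3 to -0.81 ± 0.08 at day 5, lower on both days. For Otx2, Klf4, Sox3 and Lama1 the difference between days was not called. With any 1 of the 4 day 3 libraries left out, 10 to 11 of the 16 differences were called, and with any 1 of the 4 day 5 libraries left out, 10 to 14.

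**Figure D5:**
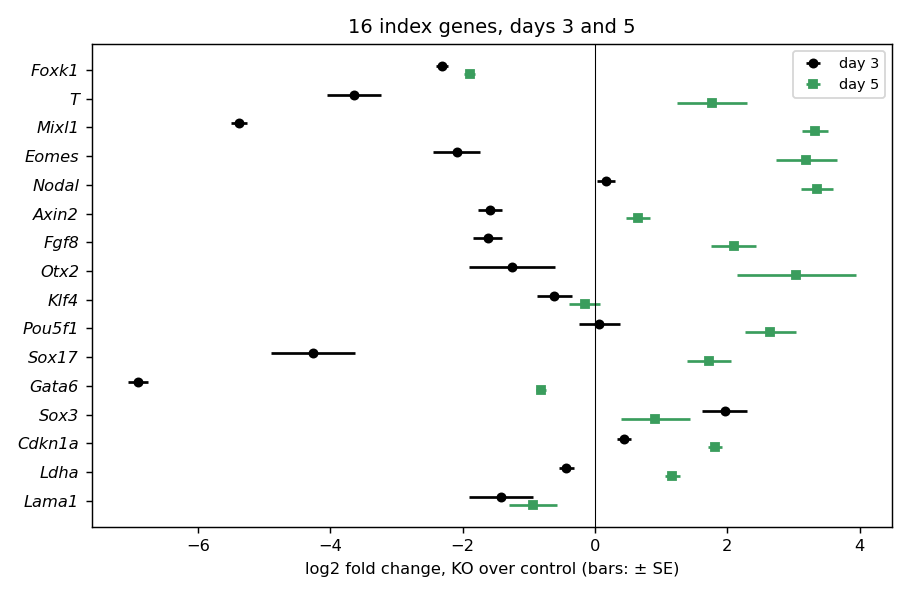
Log2 fold changes of KO over control with their standard errors for 16 index genes, with day 3 as black circles and day 5 as green squares. Streak genes such as T, Mixl1, Eomes and Fgf8 lie left of 0 at day 3 and right of 0 at day 5, Foxk1 and Gata6 lie left of 0 on both days, and Sox3 and Cdkn1a lie right on both. The day 5 values of T and Sox3 were not called.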

How the data were processed

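Whole embryoid bodies were sequenced as paired-end RNA libraries. The authors deposited estimated counts per gene, made with kallisto 0.46.2 against mm10 per the submitters' processing notes, as whole numbers for 36047 genes. Being whole already, these estimates were not rounded again. Neither the step from transcripts to genes nor the annotation version is given in the sources used here. A TruSeq RNA kit or a stranded kit was used, per the labels, and strand use in counting is not stated, so overlapping genes on opposite strands cannot be told apart. The columns of the table were matched to samples by name, and the day 10 table was not used. GENCODE vM21 (mm10) gave symbols and positions for all 36047 identifiers.

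All 8 libraries of days 3 and 5 were fitted together with edgeR 4.0.16 in R 4.3.3, with filterByExpr on the groups, TMM scaling and its two-sided quasi-likelihood test with robust settings, which left 14430 genes and 4 residual degrees of freedom. P-values were adjusted by Benjamini-Hochberg over all genes tested, with a threshold of 0.05. The common biological coefficient of variation was 0.0915, and the first principal component (61.1%) parted the days. On that component the day 3 pairs lay at -50.07 and -50.47 (control) and -83.18 and -84.62 (KO). The day 5 pairs lay at 105 and 99.48 (control) and 45.86 and 18.05 (KO). Because the fit is joint, a day 3 p-value also carries the spread of the day 5 pairs. Alternatives were RLE scaling, library totals, no filter, protein-coding genes only, DESeq2 1.42.0, the day 3 libraries alone, a replicate block, each library left out, and counts summed over near-identical copies. Copies were genes of at least 95% identity over at least 80% of the shorter transcript of a pair (blastn 2.17.0). Pairs that shared a gene were chained into the same family.

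The libraries of a group differed by more than counting noise (chi-square per degree of freedom 1.86 in the control and 1.87 in the KO), so no pair was merged into 1 sample. That does not show separate cultures. Intervals and floors cover counting error only. In simulated data with 200 genes changed among 14430, 43.9% of 1.5-fold, 75.8% of 2-fold and 87.7% of 4-fold changes were recovered, and 7.48% of the genes called were false. Apart from these genes the simulation gave all groups the same mean, whereas 32.9% of genes were called in the data. These rates therefore do not describe the 4741 calls.

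The 44 gene lists and the genes named were chosen with earlier results of these data known, and give no independent support. Named genes were 16 index genes, up to 4 members of each list by smallest p, uncalled examples, and the 12 largest rises and 12 largest falls of protein-coding genes with a mean of at least 5 CPM. Other members, such as Lefty1, Cdh1, Wnt5a, Bmp4 and Peg3, were chosen after their values were seen. Not all are printed, and some named genes are not reported here.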

Additional observations from a re-analysis of the deposited data

Results flagged for a closer look

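For 12 of 16 index genes the KO effect differed between day 5 and day 3, by the test of that difference in edgeR's quasi-likelihood fit, with adjustment over all genes tested. Positive values mean that the log2 fold change of KO over control was higher at day 5. The streak genes differed by 8.70 for Mixl1, 5.41 for T, 5.28 for Eomes and 3.72 for Fgf8. Nodal differed by 3.19, the Wnt target Axin2 by 2.24 and Pou5f1 by 2.58. The mesoderm and endoderm factors Gata6 and Sox17 differed by 6.09 and 5.98. Ldha differed by 1.60, Cdkn1a by 1.37 and Foxk1 by 0.42. Each value compares 2 libraries a group on each day, and no cause was tested.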

How the results depend on the processing

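The count of genes called, 4741, was 7334 with the 4 day 3 libraries fitted alone, 2991 by DESeq2 and 2520 to 2572 with 1 library left out. The largest absolute chromosome median, 0.0808, was 0.0648 with RLE scaling. With near-identical copies summed, Ahcy was at -0.12, Eno1b at 0.13, Ftl1-ps1 at 0.97 and Hmga1b at 0.33, each opposite in sign to the single gene. Among the 349 named genes, no other gene that was called in the main fit or in the alternative changed sign. Sign changes of genes called in neither were not counted. DESeq2 ended 23 of their calls, no filter 18, library totals 6 and RLE scaling 3, while leaving out 1 library ended 64 to 72. The count past a doubling or halving, 1611, stayed within 1.5 times under each alternative, with 1102 to 1134 when a library was left out. Replicate numbers did not pair the samples: deviations of same-numbered libraries correlated between -0.0218 and 0.0501. With a replicate block 4577 genes were called, and 4 named genes lost their call. Genes near 3 counts a library cannot be compared at this depth.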
